A study of Homo sapiens with 12 samples.

Results

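The interleukin-1 (IL-1) ligands and receptors were followed in FDX2-iKO ES2 cells as 7 genes chosen by symbol, namely the ligands IL1A, IL1B, IL18 and IL33, the receptor chains IL1R1 and IL1RAP and the receptor antagonist IL1RN. These are 7 of the 58735 genes in the count table. Of the 7, 4 had enough counts to be tested (IL1A, IL1B, IL1R1 and IL1RAP), among 16891 tested genes in all. IL18, IL33 and IL1RN were too low to read in every condition.

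ES2 is a human ovarian carcinoma line. In FDX2-iKO ES2 cells the endogenous FDX2 gene was knocked out in all 4 conditions, and doxycycline (Doxy) kept up an HA-tagged, editing-resistant FDX2 from a TetON promoter. RNA was sequenced from 3 biological replicates each of cells grown for 6 days at 20% O2 with Doxy (FDX2 kept) or without Doxy (FDX2 lost), and of cells grown for 4 days at 20% O2 and another 3 days at 3% O2 with or without Doxy. The 3% O2 cells were thus grown for longer in total, and an effect of oxygen cannot be told apart from one of time in culture. No cells with intact endogenous FDX2 were sequenced with and without Doxy. FDX2 loss below thus stands for the comparison without against with Doxy. Its effect cannot be told apart from one of Doxy withdrawal itself. The study established 2 knockout clones and used clone #1 unless stated otherwise, and the labels name no clone for these libraries.

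IL-1α and IL-1β, encoded by IL1A and IL1B, are proinflammatory cytokines that bind the same receptor. The ligand first binds IL1R1, which then recruits the accessory chain IL1RAP, and the adaptor MYD88 and IRAK kinases pass the signal to TRAF6, NF-κB and the stress kinases. IL-1 receptor antagonist, from IL1RN, occupies IL1R1 without recruiting IL1RAP. IL-1β is made as an inactive precursor that caspase-1 cleaves within inflammasomes, whereas the IL-1α precursor is already active, and surface IL-1α is well known as an upstream driver of cytokine secretion in senescent cells. IL-18 and IL-33 belong to the same family and signal through receptors of their own, and the receptor of IL-33 also uses IL1RAP.

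IL1A (ENSG00000115008) and IL1B (ENSG00000125538) lie near each other on the minus strand of chromosome 2 (GRCh38), IL1A at 112773915 to 112784590 and IL1B at 112829751 to 112836903. IL1R1 (ENSG00000115594, chromosome 2, 102064544 to 102179874) and IL1RN (ENSG00000136689, chromosome 2, 113107214 to 113134016) are on the plus strand of the same chromosome. IL1RAP (ENSG00000196083) is on chromosome 3 (190514051 to 190659750), IL18 (ENSG00000150782) on chromosome 11 (112143251 to 112164117) and IL33 (ENSG00000137033) on chromosome 9 (6215786 to 6257983). No exonic base of IL1A or IL1B was shared with another gene, 0.2% of those of IL1R1 was shared with its antisense gene, and 4.6% of those of IL1RAP with AC108747.1.

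The promoters of IL1A and IL1B are shown because these were the ligands that rose with loss of FDX2 at 20% O2. Each RefSeq window on GRCh38.p14 holds 250 bases before and 50 bases from the start of the gene, read 5′ to 3′ on the minus strand, and for IL1A the window nearer to the 5′ end of the GENCODE gene was taken. Capitals mark matches, on either strand, to any of 6 motifs, namely the NF-κB (kappa B) motif, AP-1 (TGANTCA), the C/EBP-ATF element CARE (TGATGNAA), CRE (TGACGTCA), the hypoxia response element HRE (ACGTG) and the TATA box (TATAAA). The first is IL1A at chr2:112784444-112784743 and the second is IL1B at chr2:112836730-112837029.
IL1A: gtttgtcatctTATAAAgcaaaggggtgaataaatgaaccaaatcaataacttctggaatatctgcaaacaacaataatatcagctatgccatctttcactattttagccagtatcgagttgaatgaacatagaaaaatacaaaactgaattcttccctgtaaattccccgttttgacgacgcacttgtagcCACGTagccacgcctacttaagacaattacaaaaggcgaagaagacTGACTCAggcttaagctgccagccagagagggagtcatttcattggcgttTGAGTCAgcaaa
IL1B: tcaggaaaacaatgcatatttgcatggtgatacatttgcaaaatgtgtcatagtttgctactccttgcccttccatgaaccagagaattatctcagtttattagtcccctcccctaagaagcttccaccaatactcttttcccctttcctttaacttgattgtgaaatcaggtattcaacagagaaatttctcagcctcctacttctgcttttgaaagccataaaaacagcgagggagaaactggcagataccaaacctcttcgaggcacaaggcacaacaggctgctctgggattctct
The IL1A window held AP-1 matches starting at −12 and at 39 from the RefSeq start, an HRE match on the opposite strand at −58 and TATAAA at −239. None of these motifs matched in the IL1B window. Among 35116 promoter windows of this length, 7.71% held the AP-1 motif, 21.4% the HRE, 11.5% TATAAA, 11.3% the kappa B motif, 3.62% the CARE and 1.85% the CRE. These matches describe letters only, and no binding was measured here.

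Library totals lay between 24958386 and 34313637 counts. Levels are given as CPM, that is counts relative to the total of the library after TMM scaling. In 3 libraries (20% O2 with Doxy replicate 1, 3% O2 with Doxy replicate 3 and 3% O2 without Doxy replicate 2) levels depended on the GC content of transcripts in another way than in the rest, with GC-rich transcripts (63.2% GC) higher against GC-poor ones (38.2% GC) by 0.48 to 0.52 on the log2 scale, against −0.40 to 0.17 in the other 9. No member lost or gained its call when any 1 of the 12 libraries was left out. The targeted gene FDX2 had 2 to 13 counts per library with no lower level without Doxy (5, 2 and 6 with Doxy at 20% O2, and 9, 13 and 4 without), so its loss could not be checked on these counts. Why so few reads were counted for FDX2 was not tested. The study showed loss of the FDX2 protein after Doxy withdrawal by Western blot. Of the markers of the carcinoma, KRT18 (376 to 669 CPM), KRT8 and PAX8 were present, while KRT19, EPCAM, CDH1 and NAPSA had at most 9 counts in any library. The mesenchymal markers VIM (2070 to 4180 CPM), FN1, CDH2 and ZEB1 were all present. Myeloid cells are a main source of IL-1 in tissue, and the summed level of 9 myeloid markers was 1.02 to 3.5 CPM, with TYROBP at 0 in all libraries and PTPRC at no more than 2 counts. That sum was 1.02 to 1.88 CPM with Doxy and 1.58 to 1.79 CPM without at 20% O2, ranges that overlap, and 2.2 to 2.78 and 2.74 to 3.5 CPM at 3% O2. The summed level of the 4 mesenchymal markers was lower without Doxy at 20% O2 (3030 to 3150 CPM) than with Doxy (3570 to 4080 CPM). This sum was mostly VIM, at a mean of 2989 CPM with Doxy and 2124 CPM without. VIM (log2 fold change −0.49, adjusted p = 0.00223) and KRT18 (−0.55, adjusted p = 0.00425, edgeR) were called lower there. The mesenchymal markers did not fall together, as 2 of the 4 were called higher, FN1 (from 662 to 851 CPM) and CDH2 (from 55.8 to 68.4 CPM). In cells without Doxy, KRT8, KRT18, PAX8, VIM and the myeloid marker LYZ were called higher at 3% than at 20% O2, by 0.42 to 0.86 on the log2 scale. The part of these marker changes in the members' changes was not tested. In bulk RNA, a lower level from fewer expressing cells and from less RNA per cell cannot be told apart.

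FDX2 loss at 20% O2 raised both IL-1 ligands and the receptor chain IL1R1, and left IL1RAP without a detectable change. IL1A rose 6.62-fold, IL1B 3.28-fold and IL1R1 1.87-fold. A gene was called where its p, adjusted by Benjamini-Hochberg over all tested genes, was under 0.05 in the quasi-likelihood test of edgeR. By this measure 3 of the 4 tested members were higher and 0 lower, where 35.3% of all tested genes were called, 17.6% higher and 17.7% lower. The replicates of these 3 members did not overlap between the conditions, as was so for 52.3% of all tested genes. The median log2 fold change was 1.31 for the 4 members and 0.01 for all tested genes.

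IL1A was close to the lower end of what could be read with Doxy, at 21, 21 and 26 counts in the 3 libraries at 20% O2, against 149, 171 and 136 without Doxy. As levels these were 0.671, 0.761 and 0.764 CPM with Doxy and 4.78, 5.41 and 4.42 CPM without. All libraries without Doxy lay far above all those with Doxy. The means were 0.732 ± 0.0527 and 4.87 ± 0.498 CPM (SD, n = 3), and the log2 fold change was 2.73 (SE 0.188, 95% interval 2.31 to 3.14, adjusted p = 9.25e-07, edgeR). The study reported from these same libraries a rise of secretory genes linked to senescence. The direction of IL1A, of the other members and of the IL-1 targets below is thus not independent evidence.

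IL1B was the more abundant ligand. It had 407, 408 and 479 counts with Doxy at 20% O2 and 1428, 1505 and 1356 without, or 13.01, 14.8 and 14.1 CPM against 45.8, 47.6 and 44.1 CPM. The groups did not overlap, and the spread within each was small beside the gap. The mean of IL1B went from 14.0 ± 0.893 to 45.8 ± 1.75 CPM (SD, n = 3), and its log2 fold change was 1.72 (SE 0.0679, 95% interval 1.57 to 1.87, adjusted p = 6.32e-08, edgeR).

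IL1R1, the chain that binds the ligand, was scarce in these cells, with 43, 32 and 54 counts with Doxy and 94, 68 and 79 without at 20% O2. Its level was 1.38, 1.16 and 1.59 CPM with Doxy and 3.02, 2.15 and 2.57 CPM without, and the lowest library without Doxy stood above the highest with Doxy. The log2 fold change was 0.90 (SE 0.187, 95% interval 0.49 to 1.32, adjusted p = 0.0034, edgeR). IL1RAP, the accessory chain, had 510 to 729 counts with Doxy and 608 to 684 without. It was at 18.0, 18.5 and 21.4 CPM with Doxy and 19.5, 21.6 and 21.5 CPM without, so the groups overlapped. Its log2 fold change of 0.11 (95% interval −0.06 to 0.28) did not pass the test (adjusted p = 0.289, edgeR), and the interval leaves room for no more than a small rise.

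**Figure D1:**
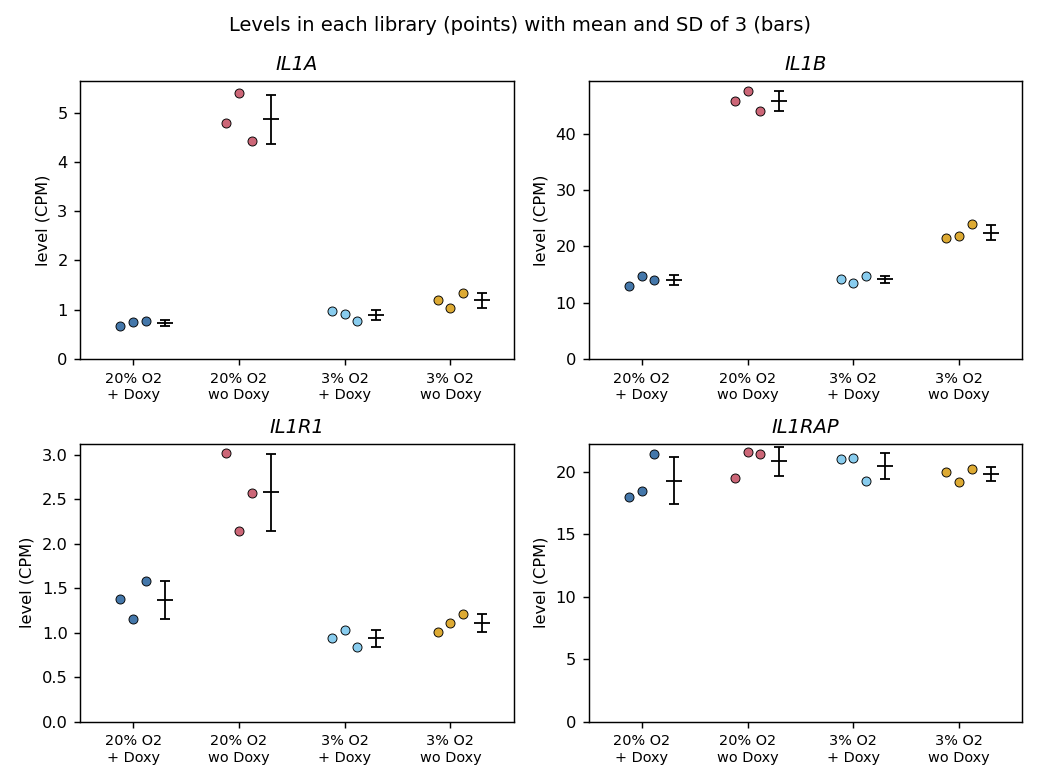
Level (CPM, linear axis from 0) of IL1A, IL1B, IL1R1 and IL1RAP in each of the 12 libraries (points, replicates 1 to 3 from left to right) with the mean and SD of 3 (bars) per condition. IL1A, IL1B and IL1R1 were highest in all 3 libraries of 20% O2 without Doxy, and IL1RAP stayed between 18.0 and 21.6 CPM.

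FDX2 loss at 3% O2 raised IL1B, and the other 3 tested members were not called. This was 1 of 4 members called (1 higher, 0 lower, and 2 at an unadjusted p under 0.05, IL1A being the other), where 7.31% of all tested genes were called, 4.2% higher and 3.11% lower. IL1B had 436, 354 and 455 counts with Doxy and 533, 549 and 767 without, or 14.1, 13.5 and 14.7 CPM against 21.5, 21.8 and 23.9 CPM, without overlap. The rise was 1.59-fold, a log2 fold change of 0.67 (SE 0.068, 95% interval 0.52 to 0.82, adjusted p = 0.000388, edgeR). In a fit to the 6 libraries of this comparison with the replicate number as a block, the estimate was 0.64 and the call was lost (adjusted p = 0.135), in a fit that called 1 gene in all.

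IL1A had 30, 24 and 24 counts with Doxy at 3% O2 and 30, 26 and 43 without. Its level was 0.971, 0.917 and 0.776 CPM with Doxy and 1.21, 1.03 and 1.34 CPM without. The libraries without Doxy all stood above those with Doxy, as the replicates of 24.6% of all tested genes failed to overlap in this comparison. The log2 fold change was 0.43 (SE 0.218, 95% interval −0.05 to 0.91) and missed the threshold (adjusted p = 0.196, edgeR). IL1R1 was at 0.939, 1.03 and 0.841 CPM with Doxy and 1.01, 1.11 and 1.22 CPM without, with overlap, and its log2 fold change of 0.25 (95% interval −0.23 to 0.73) had an adjusted p of 0.482 (edgeR). IL1RAP was at 21.1, 21.1 and 19.2 CPM with Doxy and 20.0, 19.2 and 20.3 CPM without, and its log2 fold change was −0.05 (95% interval −0.22 to 0.12, adjusted p = 0.763, edgeR).

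The difference of the responses, that is the response to FDX2 loss at 3% O2 minus that at 20% O2, was tested in the same model. IL1A responded less at 3% O2 by 2.30 on the log2 scale (difference −2.30, SE 0.288, 95% interval −2.93 to −1.67, adjusted p = 0.000512, edgeR), and IL1B by 1.05 (difference −1.05, SE 0.0952, 95% interval −1.26 to −0.84, adjusted p = 0.000241, edgeR). These were 2 of 4 members called (0 higher, 2 lower), where 7.29% of all tested genes were called, 3.21% higher and 4.08% lower. For IL1R1 the difference of −0.65 (95% interval −1.25 to −0.06) did not pass after adjustment (adjusted p = 0.174, edgeR), so a weaker response of this chain at 3% O2 was not shown. For IL1RAP it was −0.16 (95% interval −0.40 to 0.08, adjusted p = 0.415, edgeR).

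In cells that kept FDX2, oxygen made no called difference to any of the 4 tested members, where 2.02% of all tested genes were called, 1.63% higher and 0.385% lower (0 members with DESeq2's test as well as with edgeR's). At an unadjusted p under 0.05, 1 member was past the threshold, IL1R1, at 1.38, 1.16 and 1.59 CPM at 20% O2 and 0.939, 1.03 and 0.841 CPM at 3% O2. The groups of IL1R1 did not overlap, and its log2 difference was −0.55 (95% interval −1.003 to −0.11, adjusted p = 0.219, edgeR). IL1A was above its 20% O2 range in all 3 libraries at 3% O2, with a log2 difference of 0.28 (95% interval −0.25 to 0.80, adjusted p = 0.701, edgeR). Replicates of 15.4% of all tested genes did not overlap in this comparison. IL1B had a log2 difference of 0.02 (95% interval −0.13 to 0.17) and IL1RAP of 0.08 (95% interval −0.09 to 0.25), and the adjusted p was 0.966 and 0.74 (edgeR).

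In cells without FDX2, the same 3 members that were higher after loss at 20% O2 were lower at 3% than at 20% O2. IL1A was at 4.42 to 5.41 CPM at 20% O2 and 1.03 to 1.34 CPM at 3% O2, a log2 difference of −2.02 (SE 0.162, 95% interval −2.38 to −1.67, adjusted p = 1.89e-05, edgeR). IL1B was at 44.1 to 47.6 and 21.5 to 23.9 CPM, a log2 difference of −1.03 (SE 0.0663, 95% interval −1.18 to −0.89, adjusted p = 5.4e-06, edgeR). IL1R1 was at 2.15 to 3.02 and 1.01 to 1.22 CPM, a log2 difference of −1.21 (SE 0.191, 95% interval −1.63 to −0.79, adjusted p = 0.00124, edgeR). These were 3 of 4 members called (0 higher, 3 lower), where 25.8% of all tested genes were called, 13.9% higher and 11.9% lower, and where replicates of 49.4% did not overlap. IL1RAP, at a log2 difference of −0.07 (95% interval −0.24 to 0.10, adjusted p = 0.497, edgeR), overlapped between the conditions. This comparison and that of FDX2 loss at 20% O2 both use the 3 libraries of 20% O2 without Doxy, so they are not independent of each other.

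**Figure D2:**
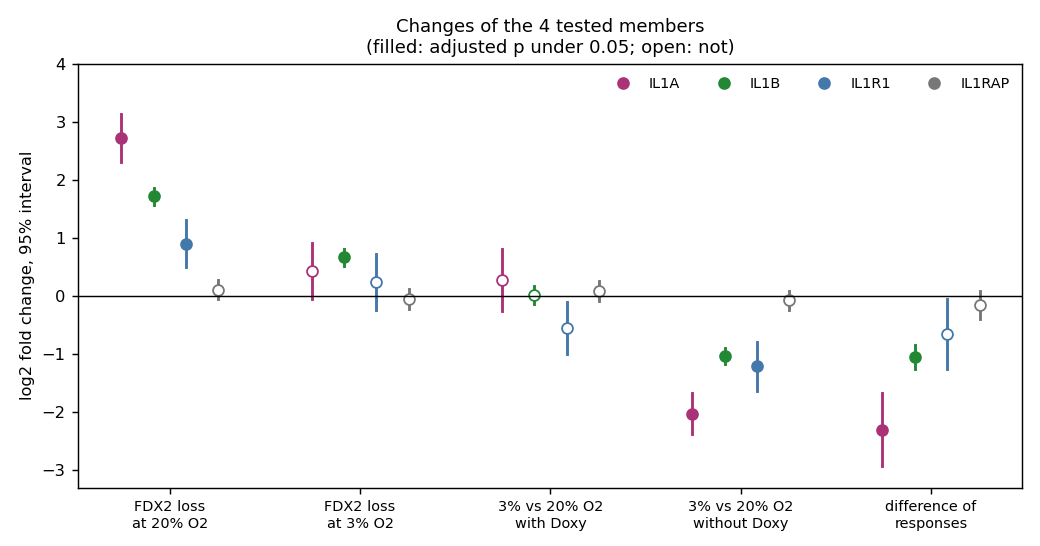
Log2 fold change (points) with its 95% interval (lines) of the 4 tested members in 5 comparisons, filled where the adjusted p was under 0.05 (edgeR). IL1A and IL1B stand apart from 0 in both comparisons that use 20% O2 without Doxy and in the difference of responses, while every interval of IL1RAP includes 0.

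The members without enough counts for a test are described by their counts. IL18, whose product is released after cleavage by caspase-1, had 4 counts in all 12 libraries together, in 3 libraries, and at most 2 in one. IL33, an alarmin held in the nucleus, had 7 counts in 4 libraries, with 1, 2 and 3 of them in the libraries of 20% O2 without Doxy and 1 at 3% O2 without Doxy. IL1RN, the antagonist, had 6 counts in 5 libraries, with 1, 1 and 2 at 20% O2 without Doxy, 0, 1 and 1 at 3% O2 without Doxy and 0 in all 6 libraries with Doxy. Counts of IL33 and IL1RN were thus seen in libraries without Doxy and in none with Doxy, at 3 counts or fewer throughout. No library exceeded 3 counts for any of these 3 genes, and 3 counts correspond to 0.0882 to 0.121 CPM at these depths, so neither a level nor a fold change was read from them.

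**Figure D3:**
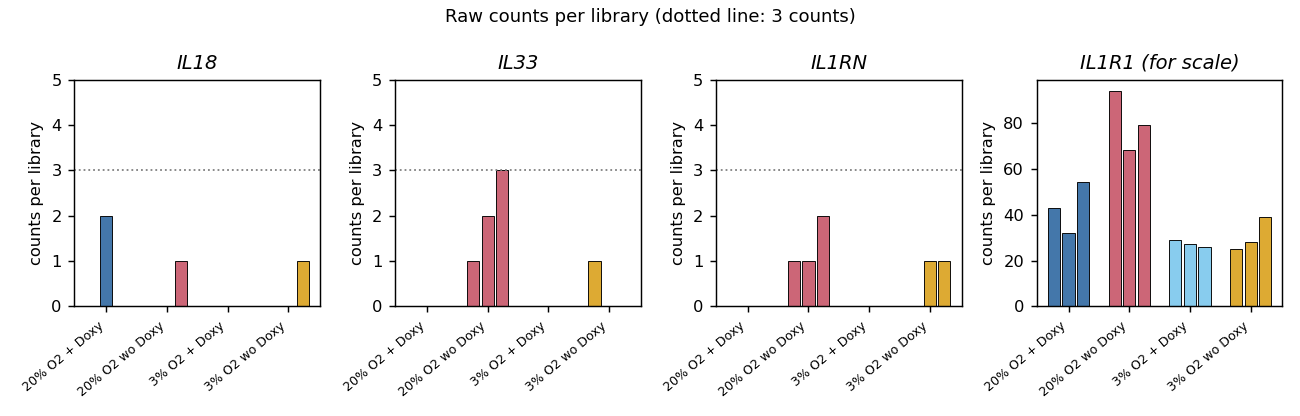
Raw counts in each library (bars, replicates 1 to 3 from left to right within a condition) of IL18, IL33 and IL1RN, with a dotted line at 3 counts, and of IL1R1 on its own axis for scale. No bar of the first 3 genes is above 3 counts, and the lowest bar of IL1R1 is at 25 counts.

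Per kilobase of all annotated exons, the order of the levels in cells with Doxy at 20% O2 was IL1B (4.51 ± 0.289 CPM per kb, SD, n = 3), IL1RAP (1.67 ± 0.162), IL1A (0.345 ± 0.0248) and IL1R1 (0.194 ± 0.0302), and no neighbours overlapped. Without Doxy at 20% O2 IL1A, at 2.29 ± 0.235 CPM per kb, stood above IL1RAP, at 1.81 ± 0.101, with IL1B at 14.8 ± 0.566 and IL1R1 at 0.364 ± 0.0612. The exons of all transcripts of IL1RAP add up to 11558 bases, so the length used matters for this pair. Per kilobase of the longest coding transcript, IL1RAP was at 3.85 ± 0.216 CPM per kb in this condition and stayed above IL1A at 2.29 ± 0.235, with IL1B highest (28.1 ± 1.07) and IL1R1 lowest (0.501 ± 0.0843). IL1B was the highest and IL1R1 the lowest of the 4 in all 4 conditions by either length.

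The ratios within a library show how unequal the changes were and do not depend on library scaling. With Doxy at 20% O2 there were 5.16, 5.15 and 5.43 IL1A counts per 100 IL1B counts, and without Doxy 10.4, 11.4 and 10.03. At 3% O2 the ratio was 6.88, 6.78 and 5.27 with Doxy and 5.63, 4.74 and 5.61 without. The libraries of 20% O2 without Doxy thus held more IL1A for each IL1B count than all 9 others. For the receptor, there were 7.65, 6.27 and 7.41 IL1R1 counts per 100 IL1RAP counts with Doxy at 20% O2 and 15.5, 9.94 and 11.97 without. At 3% O2 these were 4.45, 4.89 and 4.37 with Doxy and 5.03, 5.80 and 6.00 without, the lowest of the 4 conditions being that with Doxy at 3% O2.

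**Figure D4:**
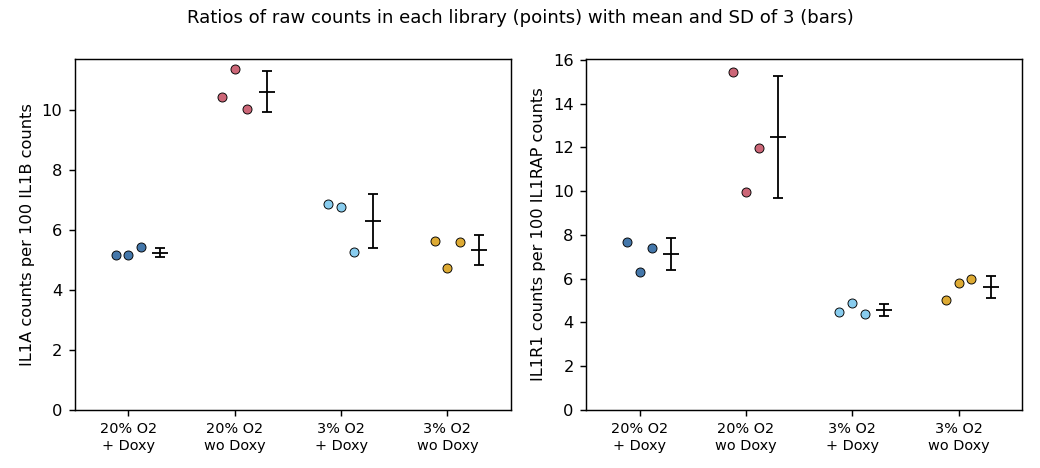
Raw counts of IL1A per 100 counts of IL1B (left) and of IL1R1 per 100 counts of IL1RAP (right) in each library (points) with the mean and SD of 3 (bars) per condition, on axes from 0. Both ratios are highest in the 3 libraries of 20% O2 without Doxy, at 10.03 to 11.4 and 9.94 to 15.5.

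Of 15 other ligands and receptors of the family, 4 had enough counts to be tested. With FDX2 lost at 20% O2, 2 of the 4 were higher and 0 lower (median log2 fold change 0.56), beside 35.3% of all tested genes called and 17.6% called higher. The count ranged from 1 to 5 over all alternatives, which also change how many of the 15 are tested. IL1RL1, the receptor for IL-33, had 0, 1 and 7 counts with Doxy and 53, 44 and 54 without at 20% O2, and 8, 1 and 7 against 11, 9 and 17 at 3% O2. It passed the filter on low counts (minimum count 10) only through libraries without Doxy, where it was high. The count of 2 and the median are thus partly set by the filter. IL1RL1 rose at 20% O2 (log2 fold change 4.19, SE 0.711, adjusted p = 0.000975, edgeR), with a log2 fold change of 3.62 without 20% O2 with Doxy replicate 1 and 6.24 without replicate 3, while at 3% O2 the log2 fold change of 1.30 was not called (adjusted p = 0.281). The difference of its responses, −2.89, was not called either (adjusted p = 0.111). IL1RAPL1, a relative of IL1RAP best known from neurons, rose at both oxygen levels, by 1.02 (SE 0.179, adjusted p = 0.00124) and 1.18 (SE 0.181, adjusted p = 0.00349, edgeR). It was the 1 of 4 called at 3% O2, beside 7.31% of all tested genes. The call at 3% O2 was lost in fits to the compared libraries alone (adjusted p = 0.0562, and 0.192 with a replicate block).

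IL1R2, the decoy receptor that binds IL-1 without signalling, was not tested. It had no count in the 3 libraries with Doxy at 20% O2 and 10, 12 and 6 without, and 3, 2 and 2 against 4, 2 and 6 at 3% O2. Its mean without Doxy at 20% O2 (0.298 CPM) was 3.06-fold a floor of 3 counts per library with Doxy (0.0976 CPM). This ratio leaves out the counting error of the libraries without Doxy, so it is not a lower bound. In cells without FDX2, IL1RL1 was lower at 3% than at 20% O2 (log2 difference −1.85, adjusted p = 0.0411) and SIGIRR, a receptor that restrains IL-1 signalling, was higher (0.75, adjusted p = 0.0153, edgeR). These were the 2 of 4 called, beside 25.8% of all tested genes. The IL1RL1 call was lost when any 1 of 7 libraries was left out, among them each library of 20% O2 without Doxy. The SIGIRR call was lost without 3% O2 without Doxy replicate 2 (adjusted p = 0.0611), 1 of the 3 libraries that stood apart by GC, and without 20% O2 without Doxy replicate 3 (adjusted p = 0.0599). With Doxy, 0 of the 4 differed between the oxygen levels (0 at an unadjusted p under 0.05 and 0 with DESeq2), and for 0 of the 4 did the responses differ (2 at an unadjusted p under 0.05 and 0 with DESeq2, against edgeR's 0). The shares of all tested genes called were 2.02% and 7.29% (edgeR).

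Genes that process and release IL-1 moved in both directions. Of 15 tested among 20, FDX2 loss at 20% O2 raised 5 and lowered 2 (median log2 fold change 0.08), beside 35.3% of all tested genes called. The count of 7 ranged from 4, without 20% O2 without Doxy replicate 2, to 9 when 1 library was left out. CASP1, the caspase that matures IL-1β, rose by 1.68 (SE 0.301, adjusted p = 0.00138, edgeR) from 0.368 ± 0.077 to 1.19 ± 0.124 CPM, a low level throughout. It had 10 to 14 counts with Doxy and 34 to 42 without at 20% O2, and 4 to 9 with Doxy at 3% O2. The libraries without Doxy, where it was high, carried it past the filter on low counts. The count of 5 is thus partly set by the filter. AIM2, an inflammasome sensor of cytosolic DNA, rose by 1.63 (SE 0.111, adjusted p = 1.18e-06) from 2.37 ± 0.267 to 7.38 ± 0.233 CPM (SD, n = 3, edgeR). CASP4, the caspase that senses cytosolic lipopolysaccharide, rose by 0.88 (SE 0.0612, adjusted p = 1.95e-06, edgeR). NLRP3, the best studied inflammasome sensor, fell by 0.24 (log2 fold change −0.24, adjusted p = 0.0098), as did GSDMD, the pore that lets IL-1β out (−0.45, adjusted p = 0.0462, edgeR). The GSDMD value moved to −0.30 (adjusted p = 0.142) without 20% O2 with Doxy replicate 1 and to −0.13 (adjusted p = 0.0561) with a correction for GC content. PYCARD, the adaptor that joins these sensors to caspase-1, had 0 counts in all 12 libraries. Of its annotated exonic bases, 59.7% are shared with the antisense gene PYCARD-AS1, and how such reads were counted is not given in the sources used here.

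At 3% O2, 3 of the 15 processing genes were higher after FDX2 loss and 0 lower (median 0.06), beside 7.31% of all tested genes called. The 3 genes were AIM2 (0.67, adjusted p = 0.00327), CASP4 (0.39, adjusted p = 0.00385) and NLRP1 (0.34, adjusted p = 0.0479, edgeR). The responses of AIM2 and CASP4 were smaller than at 20% O2, by differences of −0.96 (adjusted p = 0.00345) and −0.49 (adjusted p = 0.00789, edgeR). They were the 2 of 15 called, beside 7.29% of all tested genes. With the compared libraries only AIM2 had an adjusted p of 0.0562, and with a replicate block as well AIM2 was at 0.229, CASP4 at 0.228 and none of the 15 was called. The NLRP1 call was lost in 13 of the 20 other fits at this threshold, while the fold change stayed positive in each. In cells with Doxy, 1 of the 15 was called different with oxygen, beside 2.02% of all tested genes. It was AIM2, which was higher at 3% O2 (0.64, adjusted p = 0.00795, edgeR), and 5 of the 15 were at an unadjusted p under 0.05. The AIM2 call was lost with no filter (adjusted p = 0.0736) and with the compared libraries only (0.164, and 0.698 with a replicate block). In cells without Doxy, 2 were higher at 3% O2 and 3 lower (median 0.03), against 3 called in all in the fit to all libraries with a replicate block. Of all tested genes, 13.9% were called higher and 11.9% lower. CASP1 (−1.23, adjusted p = 0.0121), CASP4 (−0.65, adjusted p = 5.39e-05) and AIM2 (−0.32, adjusted p = 0.036) were lower, and GSDMD (0.50, adjusted p = 0.0398) and CAPNS1, the small subunit of the calpains that cut IL-1α (0.29, adjusted p = 0.0128, edgeR), were higher. With a GC correction GSDMD went to 0.09 (adjusted p = 0.231), CAPNS1 to 0.04 (adjusted p = 0.708) and AIM2 to −0.24 (adjusted p = 0.103). Same-numbered libraries of these 2 conditions deviated alike from the condition means, though the labels state no pairing. With the compared libraries alone and a replicate block AIM2 was at −0.34 (adjusted p = 0.0571, edgeR). Without 3% O2 without Doxy replicate 2, CASP1 was at −1.15 (adjusted p = 0.0507).

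Of 25 genes of the receptor's signalling chain, 23 were tested. FDX2 loss at 20% O2 raised 2 and lowered 5 (median −0.06), 7 of 23 in all, near the 35.3% of all tested genes (17.6% higher, 17.7% lower). IRAK2, a kinase of the receptor complex, rose by 1.03 (SE 0.158, adjusted p = 0.000518) from 4.17 ± 0.583 to 8.48 ± 0.704 CPM (SD, n = 3, edgeR), and TAB2, a partner of the kinase TAK1, by 0.20 (adjusted p = 0.0412), a call lost in 13 of the 20 other fits at this threshold. UBE2N, the ubiquitin-conjugating enzyme that works with TRAF6, fell by 0.56 (log2 fold change −0.56, adjusted p = 4.92e-05), MAPK8, the kinase JNK, by 0.48 (−0.48, adjusted p = 0.000171) and MAP2K4, its upstream kinase, by 0.47 (−0.47, adjusted p = 0.000148, edgeR). UBE2N shares 39.5% of its exonic bases with NUDT4 on the other strand, so its counts are uncertain. The adaptor MYD88 (log2 fold change −0.06, adjusted p = 0.613) and TRAF6 (0.06, adjusted p = 0.646, edgeR) did not pass the test. They were named for their place in the chain, after their values were seen.

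At 3% O2 the same fall was called for MAPK8 (−0.29, adjusted p = 0.0201) and MAP2K4 (−0.29, adjusted p = 0.0165, edgeR), 0 being higher and 2 lower (median 0.02), beside 7.31% of all tested genes called. Both calls were lost without 3% O2 without Doxy replicate 1 (adjusted p = 0.0675 and 0.0569), and that of MAPK8 also without 3 other libraries of this comparison. Both were also lost with the compared libraries only (adjusted p = 0.0839 and 0.0767), and with a replicate block as well (0.272 for each, edgeR). With Doxy, 0 of the 23 differed with oxygen by edgeR and 0 by DESeq2, with 3 at an unadjusted p under 0.05. The share of all tested genes was 2.02% by edgeR. Without Doxy, 2 were higher at 3% O2, MAP3K3 (0.40, adjusted p = 0.0315) and UBE2N (0.34, adjusted p = 0.00269), and 3 were lower, IRAK2 (−0.76, adjusted p = 0.00557), PELI1, a ubiquitin ligase acting on IRAK kinases (−0.42, adjusted p = 0.0258), and CHUK, the kinase IKKα (−0.26, adjusted p = 0.0133, edgeR). These 5 of 23 stood beside 25.8% of all tested genes called. With the compared libraries alone and a replicate block PELI1 had an adjusted p of 0.0917, and with the GC correction CHUK was at −0.08 (adjusted p = 0.137). MAP3K3 had an adjusted p of 0.0645 with all libraries and a replicate block, and of up to 0.11 with 1 library left out (edgeR). In the fit to all libraries with a replicate block 3 of the 23 were called here in place of 5. The responses were called different for 1 gene of the 23, beside 7.29% of all tested genes. It was UBE2N (0.39, adjusted p = 0.021, edgeR), a call lost without any 1 of 7 libraries. DESeq2 called 2 and the alternatives 0 to 7.

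Genes known to be induced by IL-1 through NF-κB and AP-1 largely rose at 20% O2. Of 20 tested among 24 (1, SOD2, had no match by name), 14 were higher and 1 lower after FDX2 loss, with a median log2 fold change of 1.00 against 0.01 for all tested genes, of which 17.6% were higher and 17.7% lower. The count of 15 stayed between 12 and 17 over the alternatives. MMP3, the collagenase activator stromelysin-1, rose by 2.46 (SE 0.0564, adjusted p = 1.49e-09) from 75.5 ± 3.2 to 415 ± 17.7 CPM. IL11, a cytokine of the IL-6 family, rose by 2.14 (SE 0.169, adjusted p = 4.83e-06) from 18.7 ± 2.4 to 82.1 ± 1.16 CPM, and VCAM1, an adhesion molecule for leukocytes, by 2.07 (SE 0.146, adjusted p = 2.11e-06) from 3.57 ± 0.742 to 15.0 ± 0.482 CPM (SD, n = 3, edgeR). CXCL5, a neutrophil chemokine, fell by 0.25 (log2 fold change −0.25) with an adjusted p of 0.04995 at the edge of the threshold, and lost its call in 12 of the 20 other fits. IL6 was near the floor and was not called (1.09, adjusted p = 0.0586), and CCL2, the monocyte chemokine, had 0 counts in all libraries. Several of these targets are also reached by signals other than IL-1, and the list measures none of these routes.

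At 3% O2, 5 of the 20 targets were higher after FDX2 loss and 0 lower (median 0.27), beside 4.2% higher and 3.11% lower of all tested genes. The rises were led by MMP3 (1.58, adjusted p = 1.82e-07), VCAM1 (1.17, adjusted p = 0.00109) and BIRC3, an inhibitor of apoptosis (0.85, adjusted p = 0.00167, edgeR). The count of 5 became 1 in the compared libraries with a replicate block and 11 with a GC correction. The responses of 9 targets were smaller at 3% O2 and of 0 larger (median difference −0.28), where 7.29% of all tested genes were called. The largest of these differences were for IL11 (−1.89, adjusted p = 0.00126), PTGS2, the inducible cyclooxygenase (−1.33, adjusted p = 0.00241), and the neutrophil chemokine CXCL8 (−1.15, adjusted p = 0.000927, edgeR). With Doxy, edgeR called 1 target different with oxygen, beside 2.02% of all tested genes. It was MMP3 (−0.40, adjusted p = 0.00253), while DESeq2 called 5, 8 were at an unadjusted p under 0.05 and the alternatives gave 0 to 8. The MMP3 call was lost with the compared libraries only (adjusted p = 0.0608, and 0.681 with a replicate block). Without Doxy, 12 were lower at 3% O2 and 0 higher (median −0.43), beside 11.9% lower and 13.9% higher of all tested genes. IL11 (−1.66, adjusted p = 7.9e-05), CXCL8 (−1.53, adjusted p = 4.67e-06) and MMP3 (−1.27, adjusted p = 3.79e-07, edgeR) fell most. CXCL8 was at 299.7 ± 12.2 CPM at 20% O2 and 103.9 ± 7.11 CPM at 3% O2 without Doxy, against 127.5 ± 14.0 and 98.0 ± 10.2 CPM with Doxy (SD, n = 3). Its libraries at 3% O2 thus lay near those that kept FDX2.

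**Figure D5:**
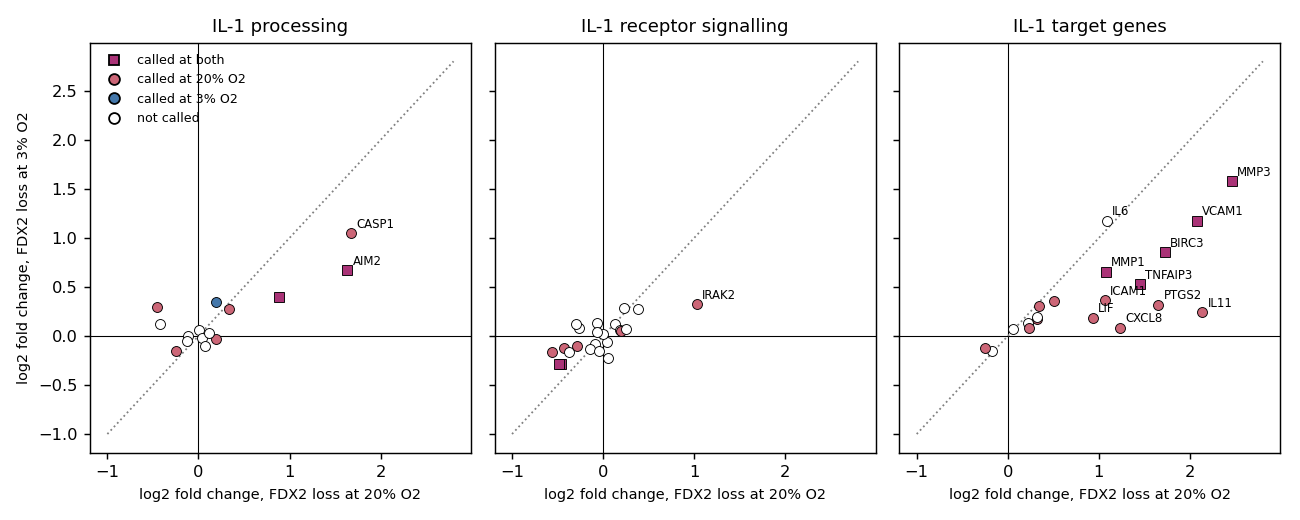
Log2 fold change on FDX2 loss at 20% O2 (horizontal) against that at 3% O2 (vertical) for the tested genes that process IL-1, carry its receptor's signal or are its known targets, marked by the oxygen levels at which they were called (edgeR), with a dotted line of equal change. Targets such as IL11 (2.14 and not called at 3% O2) and CXCL8 (1.23 at 20% O2) lie well below the line, and most signalling genes lie near 0 on both axes.

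The genes whose level over the 12 libraries was most like that of each tested member were looked up among about 10765 genes of at least 5 CPM, as a description. The 3 libraries of 20% O2 without Doxy stand apart for IL1A, IL1B and IL1R1, so these correlations mainly restate that separation, and all points share libraries and depth. For IL1A they were SPG11 (Pearson's r of log2 CPM 0.995), OGT (0.991), CREBRF (0.99), LINC01436 (0.989) and BEX4 (0.985). For IL1B they were FBXO32 (0.996), PHYH (0.994), DDIT3 (0.994), PCLO (0.994) and DDR2 (0.992). On FDX2 loss, the 5 genes of IL1A had log2 fold changes of 0.52 (SPG11) to 1.62 (CREBRF) at 20% O2 and 0.12 to 0.41 at 3% O2. Those of IL1B had 0.72 (DDR2) to 2.49 (DDIT3) at 20% O2 and 0.29 to 0.85 at 3% O2. The values were 2.73 and 0.43 for IL1A itself and 1.72 and 0.67 for IL1B. For IL1R1 they were TFPI2 (0.969), TRIM37 (0.968), NQO1 (0.963), CXCL8 (0.959) and TMEM167B (0.958). IL1RAP varied little, and its nearest genes were TRMT1L (0.917), TAOK1 (0.843), PAPOLG (0.826), FKBP7 (0.81) and PLEKHA8 (0.808).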

How the data were processed

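Gene expression was measured by RNA-seq of poly(A) RNA from 12 libraries of FDX2-iKO ES2 cells (4 conditions, 3 replicates each, DNBSEQ-T7). The deposited values are raw counts per gene, which the authors made with STAR and featureCounts on GRCh38, and the authors normalized counts with DESeq2 for their own plots. The versions of STAR and featureCounts, the annotation and the strand setting are not given in the sources used here. All 58735 identifiers matched GENCODE release 29, which gave symbols, positions and exon lengths, and promoters are from RefSeq (GRCh38.p14).

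The analysis used edgeR 4.0.16 under R 4.3.3. Genes were kept by filterByExpr (minimum count 10, minimum total 15), libraries were scaled by TMM, and 1 mean per condition was fitted over the 12 libraries (residual degrees of freedom 8, common biological coefficient of variation 16.3%). Quasi-likelihood tests were adjusted by Benjamini-Hochberg over 16891 genes and called at an adjusted p under 0.05. The SE is the larger of that implied by the test and that of Poisson counting, and intervals (95%) use the t quantile of the fit. All tests were two-sided. No gene whose libraries stayed at 3 counts or fewer in a condition was given a level there, and the floor covers counting error only.

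The members and lists were chosen with earlier results of these data known. Named were the 7 members, up to 3 called genes with the largest rise and 3 with the largest fall per list and comparison, and the 5 genes most correlated with each tested member (at least 5 CPM). MYD88, TRAF6, IL6, IL1R2, PYCARD, CCL2 and the values of genes between comparisons were named outside this rule, after their values were seen.

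Alternatives were DESeq2 1.42.0 (size factors, and its Wald test), no filter, at least 10 counts in every library, the replicate number as a block, the compared libraries only, an adjusted p under 0.01 and each library left out. A correction for GC content (lowess, span 0.3) was added after the data were seen. Deviations from the condition means correlated between same-numbered libraries at 0.19 to 0.497 for the 2 conditions without Doxy, against −0.473 to 0.231 for other numbers, and no other 2 conditions had 3 such correlations above 0.1. These ranges overlap, and the labels do not say that same-numbered libraries are paired. The fit was tested on simulated data. Identical or near-identical replicate libraries were not seen.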

Additional observations from a re-analysis of the deposited data

Results flagged for a closer look

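Both tested IL-1 ligands responded to FDX2 loss by different amounts at 3% and at 20% O2, by a test of the difference itself in edgeR's model. For IL1A the response at 3% O2 minus that at 20% O2 was −2.30 on the log2 scale (SE 0.288, adjusted p = 0.000512), and the levels without Doxy were 4.42 to 5.41 CPM at 20% O2 and 1.03 to 1.34 CPM at 3% O2. For IL1B it was −1.05 (SE 0.0952, adjusted p = 0.000241), with 44.1 to 47.6 and 21.5 to 23.9 CPM. Groups of 3 libraries were too small to look for single outlying libraries.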

How the results depend on the processing

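The number of members called stayed at 3 for FDX2 loss at 20% O2, 0 for oxygen with Doxy, 3 for oxygen without Doxy and 2 for the difference of responses under every alternative. For FDX2 loss at 3% O2 it went from 1 to 0 with the compared libraries only and a replicate block, where IL1B was at 0.64 (adjusted p = 0.135). Values that reversed were all uncalled and near 0. With the GC correction IL1RAP was at 0.009 for FDX2 loss at 3% O2 and at 0.058 for oxygen without Doxy, and at 0.047 with the compared libraries, replicate block and GC correction together. For oxygen with Doxy IL1B was at −0.001 without a filter and ranged from −0.041 to 0.059 over the fits without 1 library. The cause was not tested.

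The number of all genes called moved further. For FDX2 loss at 20% O2 (5961) it was 3645 at an adjusted p under 0.01, and 4423 to 6707 without 1 library. For FDX2 loss at 3% O2 (1235) it was 678 with no filter, 676 with a replicate block, 1 with the compared libraries and a replicate block, 218 with the compared libraries only, 1898 with DESeq2, 404 at 0.01 and 3301 with the GC correction, and 581 to 1645 without 1 library. For oxygen with Doxy (341) the same settings other than no filter gave 218, 12, 128, 603, 181 and 1310, and 190 to 388 without 1 library. For oxygen without Doxy (4360) it was 1975 at 0.01, and 2321 to 5225 without 1 library. For the difference of responses (1231) it was 672 with no filter, 615 with a replicate block, 1861 with DESeq2, 382 at 0.01 and 3183 with the GC correction, and 520 to 2191 without 1 library. For oxygen without Doxy, where same-numbered libraries deviated alike, the blocked fits changed no member's call.

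Of 57 calls of members and named genes over the 5 comparisons, 33 held in every alternative, 24 were lost in at least 1 and 0 reversed. Depth limits what can be said of IL18, IL33, IL1RN and IL1R2, and of IL1A with Doxy at 21 to 30 counts per library.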
